A study of Mus musculus with 16 samples.

Results

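Aadac and Ocm are 2 of the 23299 genes in the ileal RNA-seq table of Tas1r3-/- and Tas1r3+/+ mice. They were chosen by their values in these libraries: loss of Tas1r3 went with a lower level of both, whether mice ate the normal diet (ND) or the Western diet (WD). The genotype differences of these genes are therefore given as a description, without a test. The genes were not chosen on the comparisons of the diets and of the sexes, which were tested. These use the same libraries, and earlier results were known, so their p-values are not fully independent of the choice.

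RNA came from the terminal ileum of C57BL/6 mice that carried both copies of Tas1r3 (Tas1r3+/+, WT littermates) or the Tas1r3tm1Csz allele on both chromosomes (Tas1r3-/-, KO), backcrossed for at least 7 generations. Tas1r3 is lost in the whole animal, so no cell type or promoter restricts the loss. Mice entered the study at 5 to 6 weeks of age and received for 10 weeks either the ND with plain water or the WD, made up of 60% high-fat pellets and a 30% sucrose solution to drink. The labels name 2 males (M1, M2) and 2 females (F1, F2) in each of the 4 groups, 16 samples in all, and the study's methods give a larger number of mice per group. For ND-fed Tas1r3-/- mice, the F1 and F2 columns equal weighted means of the M1 and M2 columns in all but 17 and 18 transcripts, none of them of Aadac or Ocm. These columns were left out, so this group is 2 males. For WD-fed Tas1r3-/- mice, the values of F2 are not independent of those of F1, so both were averaged and counted as 1 female library. The 13 libraries that remained hold about 7003141 to 12384104 reads each, as judged from the smallest steps between values. The samples are named as separate animals, and p-values measure the spread between them.

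AADAC, arylacetamide deacetylase, is a serine esterase held in the membrane of the endoplasmic reticulum with its active site in the lumen. It is best known from liver and small intestine, where it hydrolyses acetylated drugs and is thought to act on neutral lipid esters, and it belongs to the same fold family as hormone-sensitive lipase. OCM, oncomodulin, is a small cytosolic protein of the parvalbumin family. It binds calcium through EF-hand loops, is best known as the calcium buffer of the outer hair cells of the inner ear, and is also made by myeloid cells after nerve injury.

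The table lists 1 transcript of Aadac and 2 of Ocm. Aadac (ENSMUSG00000027761.4) lies on the forward strand of chromosome 3 (GRCm38), and its listed transcript Aadac-201 spans 60031761 to 60040160 with 5 exons and 1324 bases. Ocm (ENSMUSG00000029618.13) lies on the reverse strand of chromosome 5, where Ocm-201 spans 144019804 to 144026599 with 5 exons and 658 bases. The shorter Ocm-203 spans 144024440 to 144026670 with 3 exons and 313 bases, and overlaps the start of Ocm-201, so that reads had to be divided between these transcripts. For each gene, 3 transcripts are annotated in GENCODE, and the levels below cover those listed in the table.

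The sequences before the annotated starts are shown because both genes moved the same way with genotype. They are the 250 bases before the RefSeq start (GRCm38.p6), written 5′ to 3′ on the strand of the gene. Aadac is chr3:60031538-60031787 on the forward strand, where capitals mark the 27 bases that the transcript quantified here already includes. Ocm is chr5:144050610-144050859 on the reverse strand. The RefSeq start of Ocm lies 24010 bases upstream of the start of Ocm-201, so this window is not next to the transcripts that were quantified and holds no capitals.
Aadac: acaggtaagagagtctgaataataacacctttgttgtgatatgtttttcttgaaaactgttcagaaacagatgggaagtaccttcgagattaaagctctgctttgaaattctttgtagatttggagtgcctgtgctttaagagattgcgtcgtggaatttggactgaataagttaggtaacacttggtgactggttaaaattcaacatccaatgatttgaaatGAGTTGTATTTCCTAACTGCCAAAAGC
Ocm: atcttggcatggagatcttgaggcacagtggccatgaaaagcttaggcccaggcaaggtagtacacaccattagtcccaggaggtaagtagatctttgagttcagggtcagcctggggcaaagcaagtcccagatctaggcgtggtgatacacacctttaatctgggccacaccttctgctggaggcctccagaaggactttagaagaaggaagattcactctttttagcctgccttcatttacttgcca
The window of Aadac has a GC content of 36.4% and that of Ocm of 49.6%, beside a median of 52.4% over 32851 RefSeq promoters. On both strands, 6 short motifs were searched. The TATA box, spelled TATAAA, was found in 12.4% of these promoters. The arm of an HNF1 site, spelled GTTAAT, was found in 6.43%, and the CDX2 core, spelled TTTATG, in 10.8%. The nuclear receptor half-site, spelled AGGTCA, was found in 14%, the GATA site, spelled AGATAA, in 9.99%, and the E-box, spelled CACGTG, in 6.02%. Neither window held any of them, which says only that these letters are not in these 250 bases.

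The targeted gene was examined first. Tas1r3, which encodes a subunit of the sweet and umami taste receptors, had 2.17 ± 0.53 RPKM (SD, n = 4) in ND-fed and 4.96 ± 0.972 RPKM (SD, n = 4) in WD-fed Tas1r3+/+ mice. In Tas1r3-/- mice it had at most 0.00452 RPKM in each of the 5 libraries, as the labels state. These values are below that of 1 read of this transcript (0.0196 to 0.0359 RPKM in those libraries), and 3 of its 13 values carry more than 6 digits, where nearly all other values have 6 or fewer. Among 19042 genes tested with limma, 0 (0%) passed an adjusted p of 0.01 and a 2-fold change between the genotypes on the ND and 2 (0.0105%) on the WD, with 900 and 504 genes at an unadjusted p under 0.05. Tas1r3 itself was 1 of the 2 on the WD, and on the ND it did not pass (limma, adjusted p = 0.016).

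Aadac was a low-level transcript in these ilea. Its mean over the 13 libraries was 2.19 RPKM, and 24.5% of the tested genes had a lower mean. In ND-fed Tas1r3+/+ mice, the RPKM was 2.2 and 3.81 in the males and 2.75 and 1.05 in the females. In ND-fed Tas1r3-/- males it was 0.337 and 0.859. The F2 library was the lowest of the Tas1r3+/+ group and came nearest to the Tas1r3-/- libraries, but the groups did not overlap. In WD-fed Tas1r3+/+ mice, the RPKM was 3.54 and 5.93 in the males and 2.93 and 2.8 in the females. In WD-fed Tas1r3-/- mice it was 1.15 and 0.47 in the males and 0.675 in the averaged female library, whose deposited columns held 0.665 and 0.685. Every Tas1r3-/- library was thus below every Tas1r3+/+ library of its diet. The group means were 2.45 ± 1.15 (SD, n = 4) against 0.598 ± 0.369 (SD, n = 2) on the ND, and 3.8 ± 1.46 (SD, n = 4) against 0.764 ± 0.346 (SD, n = 3) on the WD.

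Ocm was well above Aadac in level per length. Its mean was 41 RPKM, and 87.7% of the tested genes had a lower mean. In ND-fed Tas1r3+/+ mice, the RPKM was 59.2 and 67.4 in the males and 53.6 and 89.2 in the females. In ND-fed Tas1r3-/- males it was 14.5 and 31.3. No Tas1r3-/- value reached the lowest Tas1r3+/+ value. In WD-fed Tas1r3+/+ mice, the values lay close together, at 42.1 and 40.9 RPKM in the males and 44.8 and 35.2 RPKM in the females. In WD-fed Tas1r3-/- mice it was 15.8 and 15.2 RPKM in the males and 24.5 RPKM in the averaged female library. The deposited columns behind that average differed, with 30.4 RPKM in F1 and 18.5 RPKM in F2, and both were below the lowest Tas1r3+/+ library. The group means were 67.4 ± 15.7 (SD, n = 4) against 22.9 ± 11.9 (SD, n = 2) on the ND, and 40.8 ± 4.01 (SD, n = 4) against 18.5 ± 5.2 (SD, n = 3) on the WD.

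**Figure D1:**
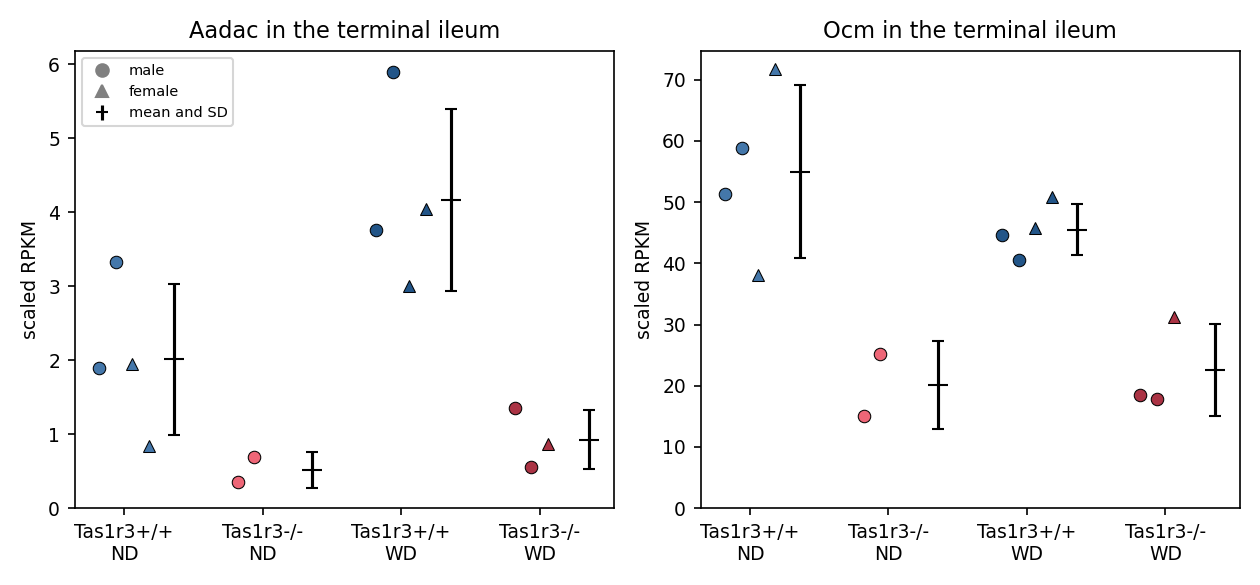
Scaled RPKM of Aadac (left) and Ocm (right) in each library by genotype and diet; circles are males, triangles are females, and bars give the group mean and SD. On each diet all Tas1r3-/- points lie below all Tas1r3+/+ points, with Aadac group means of 0.521 and 0.922 against 2.01 and 4.17, and Ocm group means of 20.1 and 22.6 against 55 and 45.5.

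The total of the table's values differed between the diets (817011 to 819992 in ND columns and 542371 to 685274 in WD columns), so libraries were scaled before they were compared. Differences below are on the scale of log2(scaled RPKM + 0.5), which understates the change of a low gene such as Aadac. Between Tas1r3-/- and Tas1r3+/+ mice, Aadac differed by -1.22 on the ND (SE 0.40) and by -1.72 on the WD (SE 0.35), 2.33-fold and 3.29-fold on this scale. Ocm differed by -1.44 on the ND (SE 0.30) and by -1.04 on the WD (SE 0.26), 2.71-fold and 2.05-fold. With unscaled values, the direction was the same in all 4 of these differences. Across all tested genes the median difference was 0.01 on the ND and -0.01 on the WD. A complete separation with Tas1r3-/- lower was found in 13.3% of the tested genes on the ND, in 1.29% on the WD and in 0.263% on both diets. These shares stand beside the separation of Aadac and Ocm as background only, since the same contrasts chose the genes.

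The genotype difference of Aadac was larger on the WD and that of Ocm on the ND, but both gaps were close in size to their standard errors. The difference on the WD minus that on the ND was -0.50 for Aadac (SE 0.53) and 0.40 for Ocm (SE 0.39). Because ND-fed Tas1r3-/- mice are represented by males alone, values were also compared within sex. In males, Aadac differed by -1.59 on the ND and -1.90 on the WD (2 libraries per group). The corresponding differences of Ocm were -1.47 and -1.20. In females, which could be compared on the WD alone, 1 averaged Tas1r3-/- library stood against 2 Tas1r3+/+ libraries, with differences of -1.55 for Aadac and -0.62 for Ocm. In each of these comparisons the Tas1r3-/- libraries were below the Tas1r3+/+ libraries. This had to follow, because the whole groups did not overlap on either diet.

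Enterocyte markers were also lower on average in Tas1r3-/- libraries, and on the WD their means overlapped between the genotypes. In bulk tissue, fewer cells of a type cannot be told apart from less RNA per cell. All 9 enterocyte markers were detected in every library and lay below 0 in Tas1r3-/- mice on both diets, with median differences of -0.98 on the ND and -0.81 on the WD. Their summed level was 2805 to 5495 scaled RPKM in ND-fed Tas1r3-/- against 7719 to 11869 in ND-fed Tas1r3+/+ libraries, and 1199 to 14488 against 5454 to 16552 on the WD. The 5 ileal markers, led by Fabp6, also lay below 0 on both diets (medians -0.71 and -0.50), and their means overlapped between the genotypes on both. The 5 Paneth cell markers lay above 0 on both diets (medians 1.12 and 0.73), as did the 6 smooth muscle markers (medians 0.66 and 0.37). Tuft cell markers had medians of 0.33 and 0.15. Those of goblet cells were -0.41 and -0.03, and those of enteroendocrine cells were -0.26 and -0.25. Relative to the mean of the enterocyte markers in the same library, a measure added after the data were seen, the difference of Aadac was -0.13 on the ND and -0.76 on the WD, and that of Ocm was -0.34 and -0.08. Tas1r3-/- and Tas1r3+/+ libraries then overlapped for both genes on both diets. The SDs of this measure in Tas1r3-/- libraries were 0.94 (ND) and 1.82 (WD) for Aadac and 1.11 and 1.22 for Ocm. In Tas1r3+/+ libraries they were 0.65 and 0.74 for Aadac and 0.25 and 0.54 for Ocm. On the WD, Aadac was -4.90 in Tas1r3-/- M1, -7.35 in M2 and -8.45 in the female library. In Tas1r3+/+ libraries it ran from -7.03 to -5.43. For Ocm these values were -1.53, -3.23 and -3.91, against -3.53 to -2.22. The part of the enterocyte share in the genotype differences was not tested.

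The values of single libraries are given as a description. The WD-fed Tas1r3-/- female library had a marker mean of 8.89 on the log2 scale, above 3 of the 4 WD-fed Tas1r3+/+ libraries (7.72, 8.11, 8.26 and 9.21). In it Aadac was 0.45 and Ocm was 4.99, below the lowest WD-fed Tas1r3+/+ values of 1.81 and 5.36. Both genes were chosen for lower values in Tas1r3-/- mice, and this library averages 2 columns, so nothing is read from it. The WD-fed Tas1r3-/- M1 library had the lowest marker mean (5.78) and the highest Aadac of its group (0.89). On the ND, both Tas1r3-/- libraries (7.62 and 6.77) were below all Tas1r3+/+ libraries in marker mean. Because of this separation, the markers and the genotype cannot be told apart there. That comparison also has 2 males alone on the Tas1r3-/- side.

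**Figure D2:**
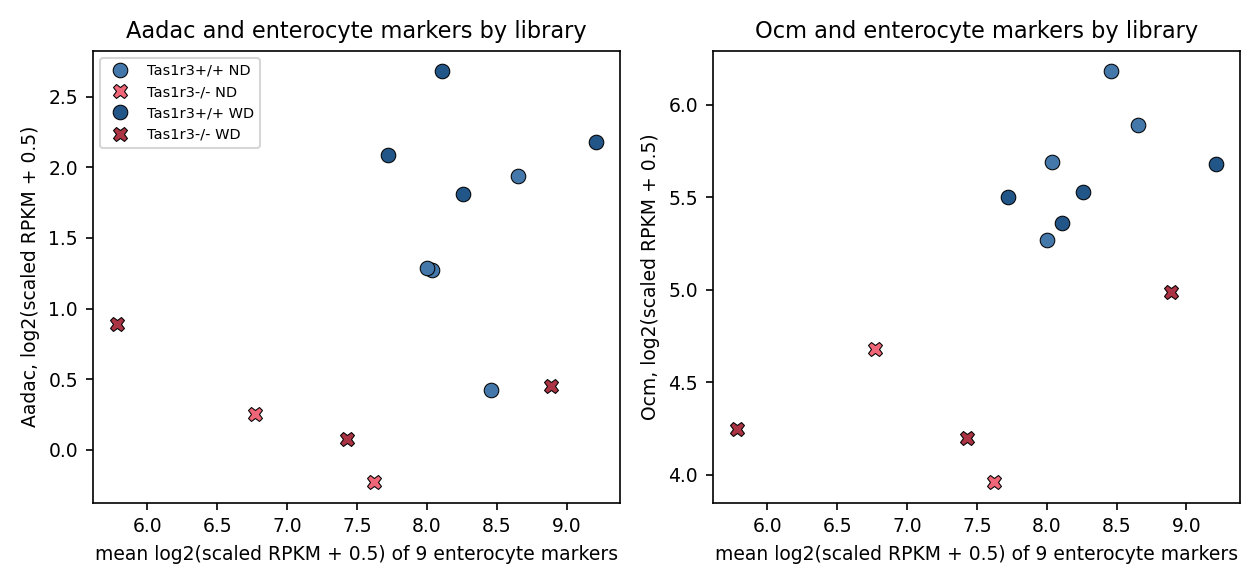
Log2(scaled RPKM + 0.5) of Aadac (left) and Ocm (right) in each library against the mean of the same measure over 9 enterocyte markers; circles are Tas1r3+/+ and crosses Tas1r3-/- libraries, lighter for the ND and darker for the WD. The cross at a marker mean of 8.89 is the WD-fed Tas1r3-/- female library. Both genes were chosen for lower values in Tas1r3-/- mice, so the heights of the crosses are a description.

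The read depth behind these values was much lower for Aadac. Dividing each value by the value of a single read gave 16 to 36.3 reads of Aadac in ND-fed and 39 to 99 reads in WD-fed Tas1r3+/+ libraries, against 5.4 to 9 and 9 to 16 reads in the Tas1r3-/- libraries. Of 13 such values, 9 came out whole within 0.02 reads, and the others are estimates. For the WD-fed Tas1r3-/- female, all read numbers here are those of the F1 column alone, not of the averaged library. At these depths 1 read was worth 0.0522 to 0.105 RPKM of Aadac, and the difference between the Tas1r3-/- groups on the ND and the WD is a matter of a few reads. Ocm-201 rested on an estimated 299.4 to 632.3 and 279 to 327.4 reads in Tas1r3+/+ libraries and on 101.6 to 157.5 and 106.8 to 228.4 reads in Tas1r3-/- libraries.

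Most of the Ocm signal came from the longer transcript. Ocm-203 made up 2.38% to 11.6% of the summed RPKM, with group means of 6.64% in ND-fed and 4.62% in WD-fed Tas1r3+/+ mice and of 7.43% and 5.63% in Tas1r3-/- mice. The ranges of all groups overlapped. In scaled RPKM, Ocm-201 was 2.73-fold lower in Tas1r3-/- mice on the ND (18.8 against 51.4) and 2.04-fold lower on the WD (21.3 against 43.3), with no overlap on either diet. Ocm-203 was 2.81-fold lower on the ND (1.28 against 3.61), again with no overlap. On the WD it was 1.67-fold lower (1.29 against 2.15) and the groups overlapped. Ocm-203 rested on an estimated 1.2 to 21.7 reads.

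**Figure D3:**
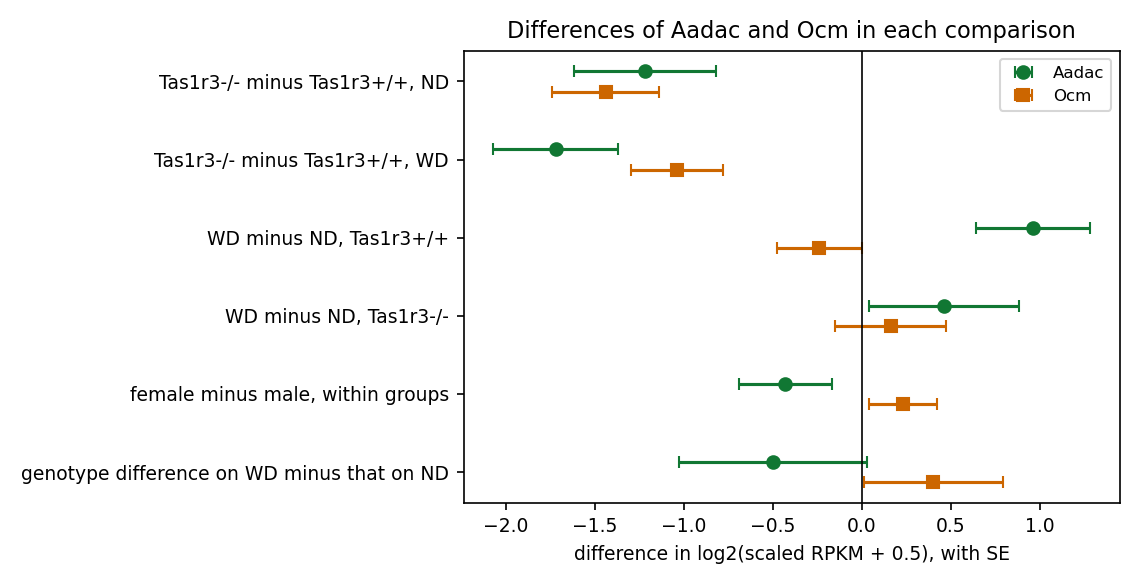
Differences of Aadac (circles) and Ocm (squares) in log2(scaled RPKM + 0.5) for each comparison named on the vertical axis, with the standard error of the fit across all groups. Both genes lie below 0 in the genotype comparisons, Aadac lies at 0.96 and Ocm at -0.24 for the diets in Tas1r3+/+ mice, and the remaining differences are between -0.50 and 0.46.

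The next comparison asked whether the WD itself moved these genes within a genotype. In Tas1r3+/+ mice, Aadac was 0.96 higher on the WD than on the ND (SE 0.32, 95% interval 0.26 to 1.66), or 1.94-fold. This missed the threshold across all genes (limma, unadjusted p = 0.0113, adjusted p = 0.194), and the exact permutation test of this gene alone gave p = 0.0571 (two-sided, smallest possible 0.0286). Of the WD-fed libraries, the lowest, at 3 scaled RPKM, lay under the highest ND-fed library, at 3.33. In Tas1r3-/- mice, the difference was 0.46 (SE 0.42, 95% interval -0.44 to 1.37, adjusted p = 0.989 with limma). The exact permutation test gave p = 0.4, where 3 against 2 libraries cannot go below 0.2. For the diets, 1 gene (0.00525%) passed in Tas1r3+/+ mice and 0 (0%) in Tas1r3-/- mice, with 2959 and 1046 genes at an unadjusted p under 0.05.

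For Ocm, the comparison of the diets depended on the scaling. In Tas1r3+/+ mice the scaled difference was -0.24 (SE 0.24, 95% interval -0.76 to 0.28; limma, adjusted p = 0.658; exact permutation p = 0.314). The ND-fed libraries spread from 38.1 to 71.8 scaled RPKM and enclosed the WD-fed libraries at 40.6 to 50.9. In deposited RPKM, all WD-fed libraries (35.2 to 44.8) lay below all ND-fed libraries (53.6 to 89.2). Without scaling the difference was -0.70 (SE 0.25; limma, unadjusted p = 0.0155, adjusted p = 0.0708), which did not pass either. In Tas1r3-/- mice the difference was 0.16 (SE 0.31, 95% interval -0.52 to 0.84; limma, adjusted p = 0.999; exact permutation p = 0.8). Its sign was not stable. It became -0.20 without the ND-fed Tas1r3-/- M1 library and -0.09 without the WD-fed Tas1r3-/- female library.

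Ordered by mean scaled RPKM, Aadac was highest in WD-fed Tas1r3+/+ mice (4.17), followed by ND-fed Tas1r3+/+ mice (2.01), WD-fed Tas1r3-/- mice (0.922) and ND-fed Tas1r3-/- mice (0.521). Libraries of each group in this order overlapped those of the next, from 3 to 5.9, 0.842 to 3.33, 0.556 to 1.35 and 0.35 to 0.692. Ocm followed another order, with ND-fed Tas1r3+/+ (55), WD-fed Tas1r3+/+ (45.5), WD-fed Tas1r3-/- (22.6) and ND-fed Tas1r3-/- mice (20.1). There, libraries overlapped between diets within each genotype, and the highest Tas1r3-/- library (31.2) was below the lowest Tas1r3+/+ library (38.1).

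Between the sexes, neither gene passed. Aadac was -0.43 in females relative to males (SE 0.26, 95% interval -1.01 to 0.15; limma, adjusted p = 0.416) and Ocm was 0.23 (SE 0.19, 95% interval -0.19 to 0.65; limma, adjusted p = 0.571). The difference of Ocm was 0.40 without the ND-fed Tas1r3+/+ F1 library (limma, unadjusted p = 0.0186, adjusted p = 0.184), 0.14 without the ND-fed Tas1r3+/+ F2 library and 0.05 without the WD-fed Tas1r3-/- female library. This comparison used the 3 groups that hold both sexes, and 7 genes (0.0368%) passed in it, with 3421 at an unadjusted p under 0.05.

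Aadac was next set beside other serine esterases of the deacetylase, hormone-sensitive lipase and carboxylesterase families. Of 29 listed genes, 17 were in the table and 14 were tested, and by mean RPKM Aadac ranked 10 of 14. Without Aadac, 11 of 13 lay below 0 on the ND (median -0.80) and 9 of 13 on the WD (median -0.45), beside medians of 0.01 and -0.01 over all genes. In females relative to males, 9 of the 13 lay above 0 (median 0.40), and ND-fed Tas1r3-/- mice are males alone. In limma 5 had an unadjusted p under 0.05 between the sexes, beside 18% of all tested genes. Between genotypes 0 passed with limma in either direction on either diet. On each diet 2 had an unadjusted p under 0.05, beside 4.73% (ND) and 2.65% (WD) of all tested genes. Ces1g was among them on both diets, at -1.42 on the ND (SE 0.50) and -1.30 on the WD (SE 0.44), with a mean of 1.34 RPKM. The other was Afmid on the ND (-1.29, SE 0.25, and 0.11 on the WD) and Ces2b on the WD (-1.19, SE 0.42, and -0.76 on the ND). The carboxylesterases of the enterocyte, which hydrolyse ester drugs and acylglycerols, had the highest levels. Ces2e had a mean of 160 RPKM and differed by -0.98 on the ND (SE 0.57) and -0.64 on the WD (SE 0.51). Ces2c had 40.7 RPKM and differed by -0.81 (SE 0.65) and -1.13 (SE 0.57), and Ces2a had 36.8 RPKM and differed by -0.80 (SE 0.74) and -0.84 (SE 0.65). Ces1f differed by -0.86 (SE 0.52) and -0.45 (SE 0.46) at 31.4 RPKM. Lipe, hormone-sensitive lipase, differed by -0.81 on the ND (SE 0.54) and 0.12 on the WD (SE 0.48). Values of these near-identical carboxylesterases can also depend on how shared reads were divided among them.

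Enzymes of neutral lipid hydrolysis and lipoprotein assembly, the processes to which AADAC has been linked, gave a like picture. All 18 listed genes were tested, and 17 lay below 0 on the ND (median -0.57) and 15 on the WD (median -0.52). In limma 0 passed the thresholds. On each diet 1 had p under 0.05 before adjustment, beside 4.73% (ND) and 2.65% (WD) of all tested genes. Apoa4, an apolipoprotein of chylomicrons, differed by -2.12 (SE 1.21) and -2.33 (SE 1.07). Apob, the structural protein of chylomicrons, differed by -1.03 (SE 0.62) and -0.58 (SE 0.54). Mttp, which loads lipid onto APOB, differed by -0.54 (SE 0.65) and -0.61 (SE 0.58). Their errors were larger than that of Aadac. The enterocyte markers moved in the same direction as these lists, and their part in the lists' differences was not tested. In females relative to males, 18 of 18 lay above 0 (median 0.64). In limma 7 had an unadjusted p under 0.05, beside 18% of all tested genes, and 0 passed the thresholds.

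Ocm was set beside other EF-hand genes in the same way. Of 25 listed calcium buffers and sensors, 21 were in the table and 20 were tested, and Ocm ranked 13 of 20 by mean RPKM. Without Ocm, 11 of 19 lay below 0 on the ND (median -0.03) and 13 of 19 on the WD (median -0.04). On either diet 0 reached an unadjusted p under 0.05 in limma, beside 4.73% (ND) and 2.65% (WD) of all tested genes. S100a10, an annexin partner and the most abundant at 795 RPKM, differed by -0.55 (SE 0.51) and -0.33 (SE 0.45). The calmodulin gene Calm3 differed by -0.05 (SE 0.25) and -0.03 (SE 0.22) at 163 RPKM. S100a6 differed by -0.28 (SE 0.38) and -0.17 (SE 0.33), and Calml4, a calmodulin-like protein of the brush border, by -0.45 (SE 0.54) and -0.11 (SE 0.48). Of 9 genes of intestinal calcium transport, 6 were tested, with medians of -0.29 and -0.05 and 0 at an unadjusted p under 0.05 on either diet. Among them, Vdr, the vitamin D receptor, differed by -0.48 (SE 0.39) and -0.44 (SE 0.35). In the comparisons of diets and sexes, 0 genes of these 4 lists passed the thresholds in limma.

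**Figure D4:**
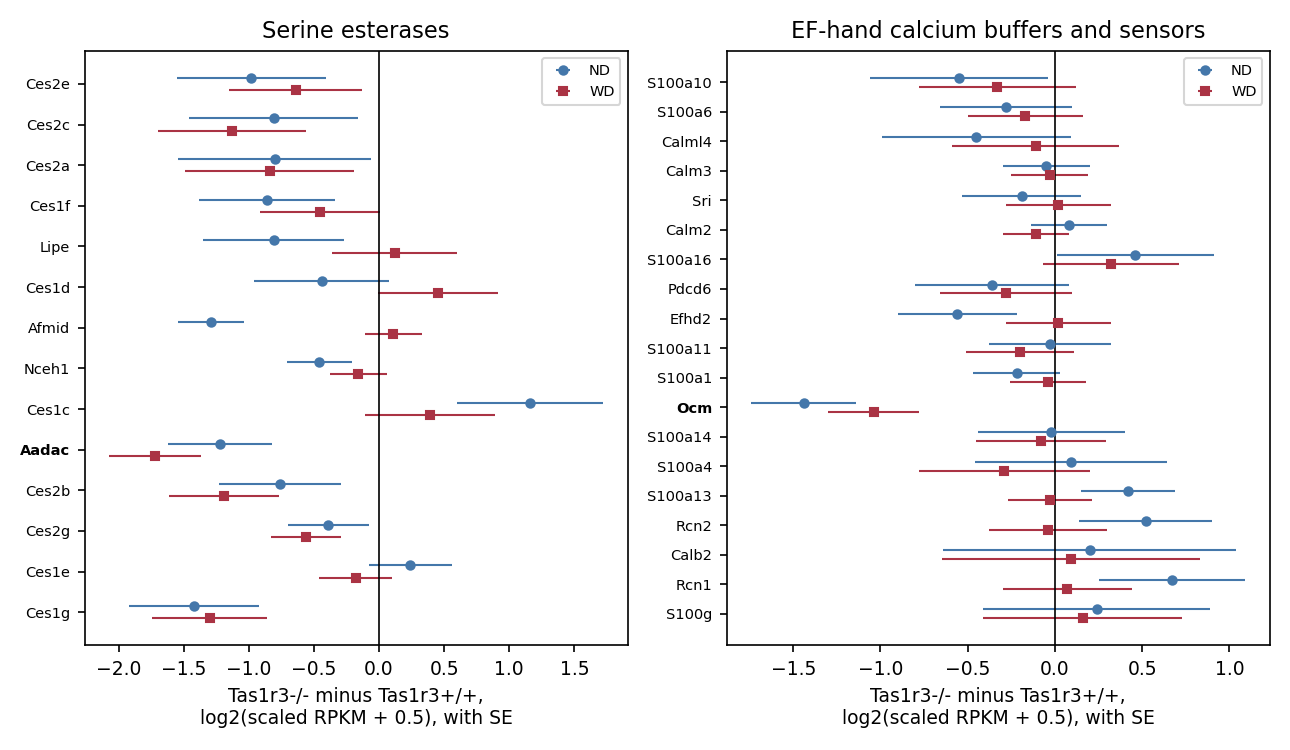
Tas1r3-/- minus Tas1r3+/+ difference in log2(scaled RPKM + 0.5) with its standard error for the 14 tested serine esterases (left) and 19 of the 20 tested EF-hand genes (right) on the ND (circles) and the WD (squares), ordered from the highest mean RPKM at the top. Without Aadac the esterases have medians of -0.80 and -0.45, and without Ocm the EF-hand genes have medians of -0.03 and -0.04; Aadac and Ocm (bold) were chosen for their values here and are drawn for reference.

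Both genes lie on other chromosomes than Tas1r3, and each was compared with its own neighbours. Within 500 kb of the start of Aadac, 4 genes were tested, of which 3 are processed pseudogenes. Their differences ran from -0.43 to 0.22 on the ND and from -0.02 to 0.68 on the WD, with 0 at an unadjusted p under 0.05 in limma. Mbnl1, a splicing regulator 447.1 kb away, differed by 0.09 (SE 0.22) and 0.05 (SE 0.19). Around Ocm, the 5 nearest tested genes on each side ran from -0.68 to 0.73 on the ND and from -0.33 to 0.81 on the WD. An unadjusted p under 0.05 was seen for 2 of these 10 on the ND and for 0 on the WD. The shares over all tested genes were 4.73% and 2.65%. Ccz1, a vesicle trafficking gene whose start lies at -11.8 kb from that of Ocm in genome coordinates, differed by 0.05 (SE 0.22) and 0.07 (SE 0.20). Lmtk2, a kinase gene at 73.8 kb, differed by -0.68 on the ND (SE 0.30) and -0.12 on the WD (SE 0.27), and Eif2ak1, the heme-regulated eIF2α kinase, by -0.57 (SE 0.23) and -0.04 (SE 0.20). The genotype values of Aadac and Ocm were used to choose them, so nothing is read from how they compare with their neighbours.

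**Figure D5:**
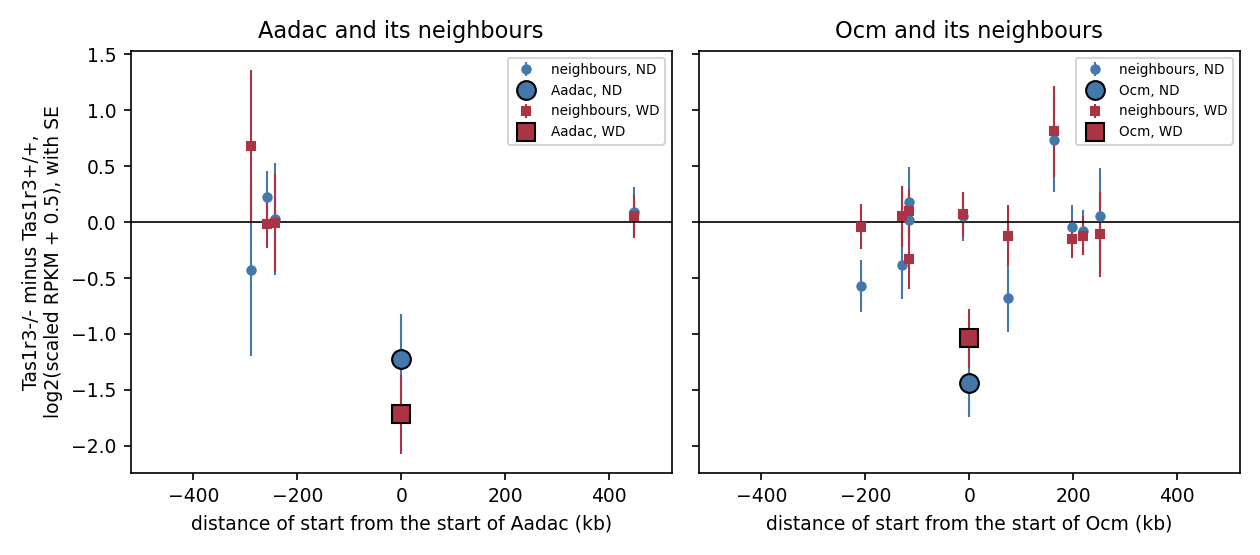
Tas1r3-/- minus Tas1r3+/+ difference in log2(scaled RPKM + 0.5) with its standard error, against the distance in kb of each gene's start from the start of Aadac (left) or Ocm (right); small symbols are neighbours, large symbols are Aadac or Ocm, circles ND and squares WD. The neighbours run from -0.68 to 0.81; Aadac and Ocm were chosen for their genotype differences, and their values are drawn for reference.

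Across the 13 libraries, Aadac and Ocm were only moderately alike (Pearson's r = 0.62, Spearman's rho = 0.55), and with group means removed r was -0.12. The genes most like Aadac were Fosb, an AP-1 transcription factor (r = 0.89), Rap2a, a small GTPase (r = 0.89), Tas1r3 itself (r = 0.88), Sin3a, a corepressor scaffold (r = 0.87), and Zfp109, a zinc finger gene (r = 0.85). With group means removed, r fell to 0.07 for Tas1r3 and was 0.72 for Fosb, 0.64 for Rap2a, 0.63 for Sin3a and 0.84 for Zfp109. The genes most like Ocm were Maml1, a Notch coactivator (r = 0.94), Bag4, a chaperone regulator (r = 0.92), Fv1, a retrovirus restriction gene (r = 0.90), Gm4817 (r = 0.89) and Siae, a sialic acid esterase (r = 0.88), with 0.49 to 0.74 after group means were removed. These are the highest of 19042 correlations over libraries that share groups and scaling, and are given as a description.

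Markers of other cells known to make these proteins were also examined. The 7 macrophage markers, relevant to Ocm, all lay above 0 on the ND (median 0.36) and all below 0 on the WD (median -0.45). Their summed level was 172 to 206 scaled RPKM in ND-fed Tas1r3-/- and 111 to 205 in ND-fed Tas1r3+/+ libraries, and 80.2 to 166 against 119 to 228 on the WD. Of 6 neutrophil markers, 1 was tested, namely Csf3r, the receptor for granulocyte colony-stimulating factor. It differed by -0.05 on the ND and by -0.82 on the WD, where its 3 Tas1r3-/- libraries (0.0288 to 0.482 scaled RPKM) were below all 4 Tas1r3+/+ libraries (0.568 to 1.52). S100a9, another neutrophil marker, was listed at 0 in 3 libraries. The part of these cells in the difference of Ocm was not tested. Of 6 hepatocyte markers, relevant to Aadac, 3 were tested. Their summed level was 2.41 to 7.12 scaled RPKM in ND-fed Tas1r3-/- and 3.51 to 5.83 in ND-fed Tas1r3+/+ libraries, and 3.24 to 3.65 against 2.46 to 10.5 on the WD. Fgb, a fibrinogen chain made in hepatocytes, was listed at 0 in 4 libraries and reached 0.25 RPKM at most.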

How the data were processed

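The authors sequenced RNA of the terminal ileum (Ion Proton), checked the reads with FASTQC, aligned them to GRCm38 in Partek Flow using STAR 2.5.3a and quantified Ensembl release 91 transcripts; the submitters' processing notes name Partek and mm10. The values deposited by the authors are RPKM per transcript, as the study's supplement calls them. The near-equal sums of the ND columns would also fit TPM, and levels between genes are per length in either case. Read counts were not used here, and depth was inferred from the value steps.

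RPKM were summed over the transcripts of each gene (59258 transcripts, 23299 genes). Libraries were scaled with factors of the trimmed-mean type (30% of ratios and 5% of levels trimmed; factors 0.693 to 1.41). Genes with at least 1 RPKM in at least 2 of 13 libraries were kept (19042). The values log2(scaled RPKM + 0.5) of all 4 groups entered 1 limma model (version 3.58.1, R 4.3.3) that allows the variance to follow the mean level, and p-values were adjusted by Benjamini and Hochberg. A gene passed if it changed at least 2-fold with an adjusted p below 0.01. The fit of the genotype comparison on the WD was also run on these libraries with group means equalised and known changes added to some genes. The other comparisons were not tested in this way. Single genes were compared between diets by exact two-sided permutation tests (scipy 1.17.1). No counting intervals are given, because the reads were inferred.

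Aadac and Ocm, the gene lists and the markers were chosen with earlier results of these data known. The genes named were these 2, Tas1r3, the 5 genes most correlated with each over 13 libraries, up to 5 tested neighbours on each side within 500 kb, and the most abundant or passing members of the lists. One listed gene that the rule would name is not reported here. Ces1g, Afmid, Ces2b, Mttp, Apob, Apoa4, Vdr and Fgb were named after their values were seen. Alternatives were RLE scaling and no scaling, pseudocounts of 0.1 and 1, no filter, a term for sex, a block for the replicate number, the 2 groups alone, each library left out, males only, all 16 columns, no transcripts with more than 6 digits, and an adjusted p under 0.05 with no minimum fold; the values relative to enterocyte markers and of Ocm-201 alone were added after the data were seen.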

Additional observations from a re-analysis of the deposited data

How the results depend on the processing

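The genotype differences of Aadac and Ocm lay below 0 under every alternative that was run. Both genes were chosen on these differences, so this is a description and not a test of them. With each library left out in turn, Aadac ran from -1.49 to -0.98 on the ND and from -1.93 to -1.52 on the WD, and Ocm from -1.80 to -1.08 and from -1.29 to -0.90. With a pseudocount of 0.1, Aadac on the ND was -1.68. Relative to the enterocyte markers, Aadac was -0.13 and -0.76 and Ocm was -0.34 and -0.08, and the genotypes overlapped for both genes on both diets. The SDs of that measure in Tas1r3-/- libraries were 0.94 and 1.82 for Aadac and 1.11 and 1.22 for Ocm. Ocm in Tas1r3-/- mice turned from higher to lower on the WD without scaling (-0.24), in males only (-0.09) and with the replicate block (-0.09), and ran from -0.20 to 0.52 with each library left out; the cause was not tested. The diet difference of Aadac in Tas1r3+/+ mice ran from 0.58 to 1.19 over 19 alternatives, with an adjusted p of 0.0763 to 0.396 in limma. The sex difference of Ocm ran from 0.05 to 0.40 with each library left out.

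Samples with the same replicate number did not deviate together in every pair (correlations of deviations from -0.15 to 0.568), so the numbers were not taken as pairs. Between the genotypes, these correlations were 0.568 (M1) and 0.417 (M2) on the WD and 0.024 (M1) and 0.056 (M2) on the ND. With the replicate block, which leaves out the WD-fed Tas1r3-/- female library, Aadac was -1.50 on the ND and -1.99 on the WD and Ocm was -1.41 and -1.26, and 0 genes passed between genotypes on the WD and 3 between diets in Tas1r3+/+ mice.

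The number of genes that passed depended on the processing. Between genotypes on the ND it was 1 with a pseudocount of 0.1, with all 16 columns and at an adjusted p under 0.05. On the WD it was 4 without scaling, 6 with all 16 columns, 1 in the 2 groups alone, 0 in males only and without the transcripts of more than 6 digits, 5 at an adjusted p under 0.05, and 1 to 3 with each library left out. Between diets in Tas1r3+/+ mice it was 539 without scaling, 33 with all 16 columns, 4 with sex as a covariate, 0 in males only, 22 at an adjusted p under 0.05, and 1 to 3 with each library left out. In Tas1r3-/- mice it was 16 with all 16 columns and 1 at an adjusted p under 0.05. Between the sexes it was 14 without scaling and with all 16 columns, 43 at an adjusted p under 0.05, and 6 to 11 with each library left out. With 5.4 to 16 reads of Aadac in Tas1r3-/- libraries, counting error limits its level there.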
